A study of Mus musculus with 4 samples.

Results

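The cells described here are 104 cells of the mouse draining lymph node that carried the transcript of Siglech, the gene of a lectin-like receptor on the surface of plasmacytoid dendritic cells. They were 0.318% of the 32725 cells that passed the quality limits in 4 single-cell libraries, and they are called Siglech cells below. A cell was taken if it held 200 to 5000 genes, at most 20000 unique molecular identifiers (UMIs, each standing for 1 captured mRNA molecule) and under 10% mitochondrial UMIs. It also had to hold no UMI of Cd3d, Cd3e and Cd3g, which encode chains of the T cell receptor complex, none of Cd79a, a chain of the B cell receptor, and at least 2 UMIs of Siglech. The cells were thus chosen by their counts of Siglech, Cd3 and Cd79a transcripts, and every difference between these cells and the others is given as a description without a test.

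The libraries came from wild-type C57BL/6 mice, 2 from untreated or vehicle controls (Control) and 2 from mice given extracellular vesicles of human induced pluripotent stem cells (iPSC EVs, group EV). Following the study's methods, 100 μg of iPSC EVs was injected under the skin and the nodes were taken on day 5, with PBS given to the controls, whereas the sample labels record 24 h and no treatment for the controls. No source gives the number of animals behind a library, and p-values measure only the spread between these 4 libraries. The deposited counts summed to 50749656 and 58100433 UMIs in Control 1 and 2 and to 68116085 and 70418672 in EV 1 and 2.

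Plasmacytoid dendritic cells are the immune cells specialised for the fast and abundant release of type I interferon. They sense viral and self nucleic acids in their endosomes through Toll-like receptors 7 and 9, and the signal passes through MyD88 to IRF7, the transcription factor that switches on the interferon genes. They develop in the bone marrow under the transcription factor TCF4 (E2-2), hold a large endoplasmic reticulum that resembles that of plasma cells, and enter lymph nodes from the blood.

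Siglech lies on chr7:55768178-55778925 of GRCm38 on the plus strand (GENCODE M21). Each Siglech cell held between 2 and 87 of its UMIs, with a median of 32. The number of Siglech cells was 27 in Control 1, 37 in Control 2, 23 in EV 1 and 17 in EV 2. Their UMIs summed to 236575, 396296, 259978 and 224558 in the same order, which is the depth behind every level below. They were deep cells, with a median of 9594, 12066, 13353 and 14738 UMIs per cell against 5502, 6561, 6639 and 6628 for all cells that passed. The control cells were thus shallower than the EV cells. The median mitochondrial share lay between 3.03% and 4.24%. No barcode of a Siglech cell was shared with a Siglech cell of another library, and 2 of their barcodes also occurred in another library.

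The name of plasmacytoid dendritic cell was checked against Bst2, Tcf4 and Irf8. All 3 were present in 88 of the 104 cells, and these had a median of 37 Siglech and 12518 total UMIs. The other 16 lacked at least 1 of them, were shallow at a median of 1164.5 UMIs, held a median of 2 Siglech UMIs, and 10 of them carried Lyz2, the lysozyme of macrophages and monocytes. They numbered 4, 6, 6 and 0 in Control 1, Control 2, EV 1 and EV 2. Of the 88 cells, 6 held neither Ly6d nor Cox6a2, and they had 2 to 9 Siglech UMIs. They numbered 0, 1, 4 and 1 by library, and among them were a cell of EV 2 with 23 UMIs of C1qa, a macrophage gene, and a cell of EV 1 with UMIs of Gzma, a gene of cytotoxic lymphocytes. The 3 markers alone thus did not set these cells apart from other types.

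The threshold of 2 UMIs can be read from the cells on either side of it, among the 1316 cells without Cd3 and Cd79a transcripts. Of the 50 cells with 1 Siglech UMI, just outside, 44.0% held Bst2, 18% Tcf4, 40.0% Irf8 and 82.0% Lyz2, and 2 held all 3 markers. Of the 15 cells with 2 UMIs, just inside, the shares were 86.7%, 40.0%, 66.7% and 60%, and 3 held all 3. Of the 76 cells with 8 or more, every cell held all 3 markers and 13.2% held Lyz2. The cells near the threshold were therefore mixed, and those with 8 or more UMIs carried the full marker set.

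**Figure D1:**
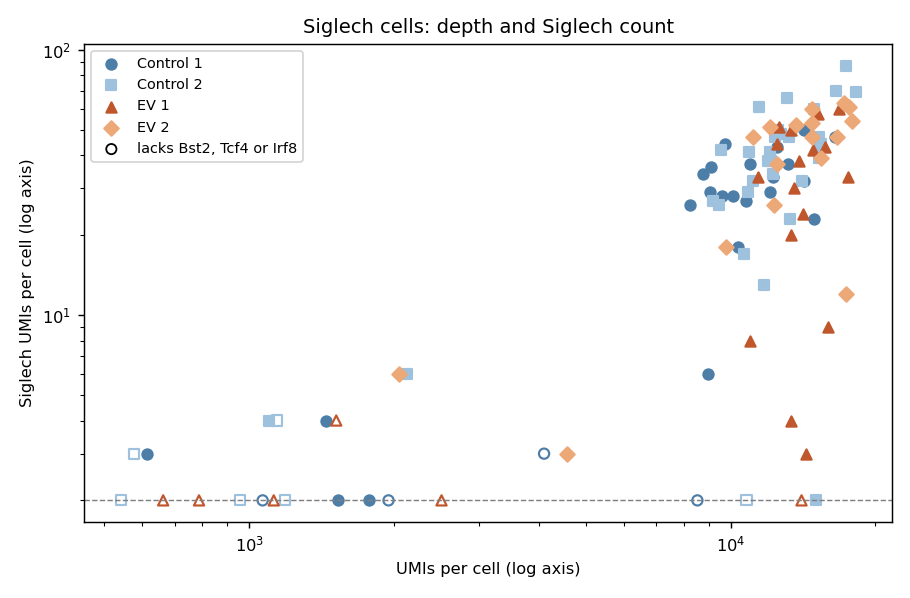
Total UMIs per cell (horizontal, log axis) against Siglech UMIs per cell (vertical, log axis) for the 104 Siglech cells, coloured by library, with open symbols for the 16 cells that lacked Bst2, Tcf4 or Irf8 and a dashed line at the threshold of 2 UMIs. Most cells sit above 8 Siglech UMIs at high depth, and the open symbols sit at 2 to 4 Siglech UMIs, mostly at low depth.

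Siglech transcripts elsewhere were scarce. The Siglech cells held 3103 of the 4039 Siglech UMIs of all cells that passed, or 76.8%. At least 1 Siglech UMI was seen in 0.426%, 0.260%, 0.121% and 0.354% of cells with 2 or more UMIs of the Cd3 genes and none of Cd79a, and in 0.0703%, 0.295%, 0.152% and 0.291% of cells with 2 or more UMIs of Cd79a and none of the Cd3 genes. These classes, with median depths of 4134 to 8756 UMIs, should lack the gene and give its background. Below, Cd3 cells and Cd79a cells are the cells of these classes without a Siglech UMI. A further 33 cells had 2 or more Siglech UMIs together with Cd3 or Cd79a transcripts and were left out by the rule. The upper limits on genes and UMIs removed 19 more barcodes with 2 or more Siglech UMIs.

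Levels below are CPM, the UMIs of a gene summed over the Siglech cells of a library, divided by all of their UMIs and scaled to a total of 1000000. Since a UMI counts a molecule by its captured 3′ end, these levels are not scaled by transcript length. Siglech itself stood at 2650, 3121, 2166 and 3010 CPM in Control 1, Control 2, EV 1 and EV 2, against 4.19 CPM in all other cells (mean of 4 libraries). Bst2, the tetherin antigen that marks these cells in the resting mouse, stood at 3149, 3336, 3312 and 3166 CPM against 77.1 CPM. Tcf4, the lineage factor, stood at 4734, 4363, 3946 and 5615 CPM against 111 CPM. Irf8, a factor that dendritic cells and B cells share, stood at 2502, 2203, 2204 and 2405 CPM against 108 CPM. Of these 4 genes Bst2 and Irf8 were the steadiest across libraries, at 3241 ± 96.7 and 2329 ± 150 CPM (SD, n = 4), while Siglech and Tcf4 varied more, at 2737 ± 431 and 4665 ± 711 CPM.

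The genes that stood highest above the other cells were ranked by their mean log2 fold, with 5 CPM added to each level and a UMI required in at least 25% of the Siglech cells of every library. Siglech led with 8.22, followed by Grm8, a metabotropic glutamate receptor, with 8.01. Next came Cox6a2, a subunit isoform of the mitochondrial cytochrome c oxidase, with 7.44, and Ctsl, the lysosomal protease cathepsin L, with 6.44. Grm8 was at 1966, 2072, 1265 and 2569 CPM against 2.53 CPM elsewhere, and was lowest in EV 1 and highest in EV 2. Runx2, a factor needed for these cells to leave the bone marrow, had 6.42 and was among the most abundant transcripts of a regulator at 2864 CPM. Mpeg1 (perforin-2, 6.21), the kallikrein Klk1 (6.19), the receptors Cd300c (6.08) and Lair1 (6.04), and Tyrobp (5.98), whose product DAP12 is the signalling partner of Siglec-H, followed. Gm21762 (6.00), Eldr (5.98), Smim5 (5.90), the progranulin gene Grn (5.82), Apba1 (5.76), the cyclin gene Ccnd1 (5.75), Fmnl2 (5.72), the nucleotide-sugar receptor P2ry14 (5.70), the lectin Cd209d (5.69) and Eepd1 (5.66) completed the 20. Over all 13396 genes with a UMI in the Siglech cells, 19.8% were higher than in the other cells in every library, 19.4% were lower in every library, and the median log2 fold was 0.02. The rule chose the cells from the same counts, so nothing is read from these shares.

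**Figure D2:**
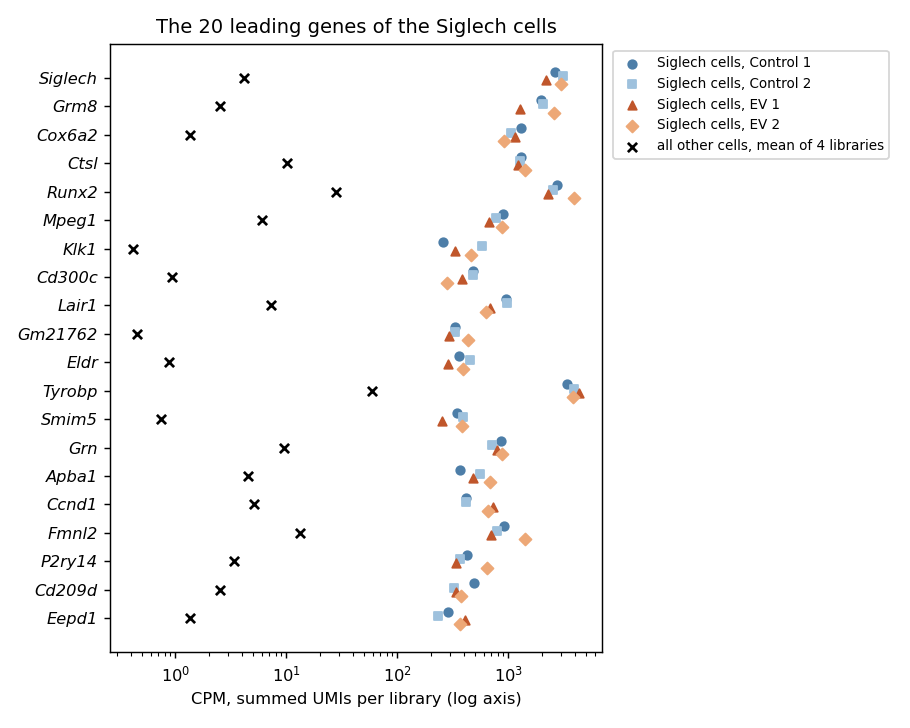
CPM on a log axis for the 20 leading genes, with 1 coloured point per library of Siglech cells and a cross for the mean of all other cells over the 4 libraries. For each gene the 4 libraries lie close together and far to the right of the cross.

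Of 15 transcription factors listed for the lineage, 10 were higher than in the other cells in all 4 libraries and 2 were lower, with a median log2 fold of 2.10. After Tcf4 and Runx2 came Zeb2 at 1307 CPM, Bcl11a, a B lymphoid factor that these cells need, at 1270 CPM, the corepressor Cbfa2t3 at 251 CPM, and the Ets factor Spib at 177 CPM. The lower genes were Ets1, with a log2 fold of -2.09, and Id2, an antagonist of E proteins such as TCF4, with -1.53. Id3, of the same family as Id2, was at 135, 58.0, 7.69 and 13.4 CPM, with log2 folds against the other cells of 0.14 and -0.74 in Control 1 and 2 and of -2.97 and -2.40 in EV 1 and 2. The Id3 level of Control 1 was 57.1 CPM without a single cell that held 59.4% of its UMIs. Among 44 surface and other genes known from these cells, 41 were higher in every library, with a median log2 fold of 4.35. The most abundant were Tyrobp at 3861 CPM, the lymphoid progenitor antigen Ly6d at 2596 CPM, Plac8 at 2351 CPM and Ly6c2, which monocytes share, at 1965 CPM. Ugcg, a glucosylceramide synthase, was the listed gene below the other cells in every library, with a log2 fold of -1.12.

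The apparatus of nucleic acid sensing was uneven. Of 31 listed genes in the files 29 had a UMI, 14 were higher and 8 lower in every library, and the median log2 fold was 0.14. Tlr7, the endosomal sensor of single-stranded RNA, stood at 144, 111, 88.5 and 178 CPM against 13.7 CPM in the other cells. Tlr9, the sensor of unmethylated CpG DNA, was seen in 3.85% of the cells at 2.85 CPM, and in 0.573% of the other cells. After each cell was reduced to 1000 UMIs no Siglech cell held it, so a level of Tlr9 could not be told from the counting limit. Unc93b1, which carries these receptors to the endosome, was at 621 CPM, the chaperone Hsp90b1, which folds them, at 783 CPM, and the endosomal nuclease Pld4 at 592 CPM. Irf7 was at 167 CPM against 23.7 CPM. Tlr8 and Lamp5 had no UMI.

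None of the 21 interferon genes in the files had a UMI in any Siglech cell, 18 of them type I. For 104 cells a count of 0 allows up to 2.88% of cells with a UMI and up to 2.68 CPM over all Siglech cells. Per library the limit was 12.7, 7.57, 11.5 and 13.4 CPM for Control 1, Control 2, EV 1 and EV 2, or 11.1%, 8.11%, 13% and 17.6% of the cells. These limits cover counting error only. In the other 32621 cells the type I genes had 53 UMIs in 51 cells, all of Ifnab, Ifnk and Ifnz, and Ifng, the type II interferon of T and NK cells, had 180 UMIs in 116 cells. Interferon transcripts were therefore not detectable in the Siglech cells at this depth, in either group. Of 12 other cytokine and effector genes of these cells, 7 had a UMI, Ccl4 and Il12a among them, and 5 had none, namely Il6, Il12b, Il10, Cxcl9 and Gzmb.

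Genes for receiving interferon and for secretion were detected. Ifnar2 and Ifnar1, the chains of the type I interferon receptor, were at 533 and 165 CPM against 84.0 and 48.9 CPM in the other cells, and Stat2 at 159 against 36.4 CPM. All 28 genes of the secretory pathway were higher than in the other cells in every library, with a median log2 fold of 1.40. Sec61b, a subunit of the channel through which new proteins enter the endoplasmic reticulum, was at 825 CPM. Xbp1, the factor that expands that organelle in secreting cells, was at 271, 189, 242 and 169 CPM against 30.0 CPM, and Ern1, which encodes the sensor that splices Xbp1 mRNA, was at 158 CPM.

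Antigen presentation genes did not separate the Siglech cells from the rest as a group. Of 15 genes of MHC class II and costimulation 4 were higher and 6 lower in every library, and the median log2 fold was 0.10. Cd74, the class II invariant chain, was at 6865 CPM against 4887 CPM in the other cells, most of which are lymphocytes. The costimulatory genes Cd86, Cd83 and Cd40 were low, at 14.6, 6.92 and 2.11 CPM. Among 15 homing genes 8 were higher and 5 lower. Ccr9, a chemokine receptor of these cells, was at 697, 850, 865 and 650 CPM against 38.7 CPM, and the adhesion gene Selplg, used on entry from the blood, was at 552 CPM. Ccr7, which guides maturing dendritic cells and T cells, was at 3.82 CPM against 142 CPM, and S1pr1, the exit receptor of lymphocytes, at 1.59 CPM against 211 CPM. Flt3, the receptor of the growth factor on which the lineage depends, was at 220, 232, 238 and 258 CPM against 9.91 CPM. The 10 cell cycle genes summed to 19.1 CPM, against 69.5 CPM in the other cells, and 5 of them had no UMI.

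Several known subset markers were seen in some Siglech cells and not in others, and the cells without them were shallower. Cd4 was seen in 58 of 104 cells and Cd8a in 37, with 24 cells holding both, 34 Cd4 alone, 13 Cd8a alone and 33 neither. The median depth was 12845.5 UMIs in cells with both and 8534 in cells with neither. In Cd79a cells, which should lack both, the shares were 0.237% for Cd4 and 0.524% for Cd8a. At 1000 UMIs per cell Cd4 was left in 14.3% and Cd8a in 8.16% of the Siglech cells deep enough to be reduced. Ccr9 was seen in 81 cells and Ly6c2 in 87, and 80 held both, at a median of 12670 UMIs against 1696 in the 16 cells with neither. Dntt, the DNA polymerase that adds bases at antigen receptor joints in lymphoid progenitors, was seen in 49 cells, or 47.1%, against 1.32% of the other cells. Klk1 was seen in 57 cells and its neighbour in the kallikrein family Klk1b27 in 34, with 32 holding both. These paralogs are close in sequence, and reads could be split between them. Mki67, a mark of division, was seen in 2 cells.

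Markers of other cell types were read as summed levels in Control 1, Control 2, EV 1 and EV 2. The 11 B cell genes summed to 769, 825, 596 and 770 CPM, most of it Ighm at 645 CPM, while Cd79a was at 0 by the rule. In Cd79a cells the same list summed to 16521 CPM. The T cell genes summed to 76.1, 55.5, 46.2 and 66.8 CPM with the 3 Cd3 genes at 0 by the rule. The macrophage genes summed to 228, 255, 242 and 574 CPM, with Cd68, which plasmacytoid cells also express, the most abundant at 169 CPM, against 8101 CPM in cells with transcripts of the complement component C1q. The NK cell genes summed to 0, 7.57, 773 and 0 CPM, and that of EV 1 came mostly from a single cell with 157 UMIs of Gzma. The conventional dendritic cell genes summed to 1289, 1042, 1346 and 1171 CPM, with Xcr1 at 0. The 8 genes of transitional dendritic cells, which share traits of both dendritic lineages, summed to 228, 426, 712 and 294 CPM, with Lyz2 the most abundant at 157 CPM. A single cell of EV 1, with 663 UMIs in all, held 70 of Lyz2. For the macrophage genes, a single cell of EV 2 held 23, 24 and 13 UMIs of C1qa, C1qb and C1qc. The 9 monocyte genes averaged 2320 CPM, of which Ly6c2 gave 1965, and the 7 plasma cell genes 363 CPM, of which Xbp1 gave 218. The migratory dendritic cell, neutrophil, and stromal and endothelial genes averaged 41.4, 7.97 and 288 CPM, and the 5 mast cell and basophil genes had no UMI.

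The share of Siglech cells was compared between the groups first. They were 0.332% (95% exact Clopper-Pearson interval 0.219% to 0.482%) of the cells of Control 1 and 0.469% (0.3303% to 0.646%) of Control 2. In EV 1 the share was 0.282% (0.179% to 0.422%) and in EV 2 0.199% (0.116% to 0.319%). The means were 0.400% ± 0.0970 and 0.241% ± 0.0583 (SD, n = 2 each). Both EV libraries were below both control libraries, with a mean difference of -0.160 percentage points (EV minus Control) and a two-sided exact permutation p of 0.33, the smallest that 2 against 2 libraries allow. Without Control 2 the difference was -0.0911 percentage points. The intervals of single libraries overlapped between the groups except for Control 2 and EV 2, and with 1 Siglech UMI as the threshold the groups overlapped too (p = 0.67, exact permutation). Among cells without Cd3 and Cd79a transcripts the share was 11.5% and 9.18% in the control and 6.17% and 5.56% in the EV libraries. A share of recovered cells does not separate fewer Siglech cells from more of the others.

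**Figure D3:**
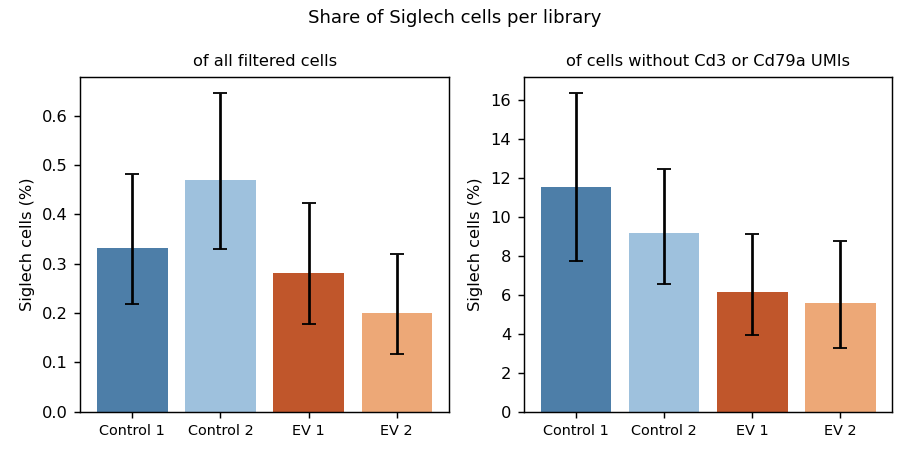
Share of Siglech cells among all cells that passed the limits, in percent (left), and among cells without Cd3 and Cd79a UMIs (right), 1 bar per library with its 95% exact Clopper-Pearson interval. The 2 EV libraries, at 0.282% and 0.199% on the left, lie below the 2 control libraries, at 0.332% and 0.469%, and the intervals overlap except between Control 2 and EV 2 on the left.

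Next, the transcripts of the Siglech cells were compared between EV and Control, with UMIs summed per library and tested over 4524 genes with the quasi-likelihood test of edgeR, with Benjamini-Hochberg adjustment. Ifitm3 and Ifi207, both known as interferon-inducible, rose in the EV libraries and were the only genes past an adjusted p of 0.05, or 0.0442% of those tested. No gene fell past it. DESeq2 called 4 genes (0.0884%). At an unadjusted p under 0.05 there were 299 genes (6.61%), 186 higher (4.11%) and 113 lower (2.50%). The 2 groups did not overlap in 1590 genes (35.1%), 806 of them higher with EV (17.8%) and 784 lower (17.3%).

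Ifitm3, whose product blocks the entry of viruses at endosomal membranes, lies on chr7:141009586-141010770 on the minus strand. It stood at 0 and 7.57 CPM in Control 1 and 2 and at 196 and 107 CPM in EV 1 and 2, from 0, 3, 51 and 24 UMIs in 0, 3, 7 and 5 cells. The log2 fold change was 4.87 (SE 0.64, adjusted p = 0.0179, edgeR), and the ratio of the pooled counts was 32.7 with a 95% counting interval of 10.8 to 162. That interval takes UMIs as independent, and with 3 UMIs in the controls the gene passed the filter on low counts through the EV libraries. A single cell gave 56.9% of the UMIs in EV 1 and 41.7% in EV 2, and without it the levels were 89.6 and 65.2 CPM. The cell of EV 1 lay near the threshold, with 3 Siglech UMIs and none of Ly6d or Cox6a2. Ifi207, of the HIN-200 family of interferon-inducible nucleic acid binding proteins, lies on chr1:173723427-173741747 on the minus strand. It stood at 29.6, 47.9, 223 and 200 CPM in 4, 6, 12 and 10 cells (log2 fold change 2.34, SE 0.35, adjusted p = 0.0316, edgeR). Without the highest cell of each library its levels were 22.5, 23.8, 153 and 153 CPM, and the groups still did not overlap. Ifi207 lost its call without Control 1 (adjusted p = 0.147, edgeR) and when the upper limits on depth were dropped together with a mitochondrial limit of 5% (0.193). With the replicate number as a block neither Ifitm3 nor Ifi207 was called (adjusted p = 0.318 for both, edgeR).

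The other genes named by rule, those with the smallest p in each direction among genes whose groups do not overlap, did not pass. On the higher side they were Isg15, a ubiquitin-like protein induced by interferon, Slfn5, a member of the interferon-induced Schlafen family, and Cd300a, an inhibitory receptor. Isg15 stood at 0, 17.7, 104 and 191 CPM (log2 fold change 3.66, SE 0.61, adjusted p = 0.0619, edgeR), with 48.8% of the UMIs of EV 2 in a single cell. With 0, 7, 27 and 43 UMIs it passed the filter on low counts through the EV libraries. Slfn5 stood at 16.9, 32.8, 146 and 120 CPM (2.28, SE 0.40, adjusted p = 0.0845, edgeR), and it too passed the filter through the EV libraries. Cd300a stood at 55.0, 78.2, 315 and 200 CPM (1.88, SE 0.35, adjusted p = 0.0845, edgeR). In EV 2 a single cell held 55.6% of the Slfn5 UMIs, and without it Slfn5 stood at 55.9 CPM. Another cell held 60% of the Cd300a UMIs of that library, and without it Cd300a stood at 86.9 CPM. That cell held 8 UMIs of Cx3cr1 and 5 of Zbtb46, both listed for transitional dendritic cells, 1 of Ly6d and none of Cox6a2. In EV 1 the highest Cd300a cell, with 28.0% of the UMIs, held 8 of Zbtb46 and none of Ly6d or Cox6a2. On the lower side, Id3 stood at 135, 58.0, 7.69 and 13.4 CPM (adjusted p = 0.127, edgeR). In Control 1 a single cell held 59.4% of the Id3 UMIs, and without it Id3 stood at 57.1 CPM there. Gtf2h5, a small subunit of the repair and transcription factor TFIIH, Cacnb2, a calcium channel subunit, and Gm10790 had log2 fold changes of -1.99, -1.64 and -1.88 (adjusted p from 0.153 to 0.157, edgeR). Id3, Gtf2h5 and Gm10790 passed the filter on low counts through the control libraries, with 2 to 7 UMIs in each EV library. Without the upper limits on depth and with a mitochondrial limit of 5%, the value of Cacnb2 turned to 0.059.

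Interferon acts on many of its target genes through the interferon-stimulated response element. Its core was searched as GAAANNGAAA on both strands, overlapping matches included, in the 250 bases before the annotated start of each gene (RefSeq, GRCm38.p6). The promoters of the higher genes that hold it are shown, 5′ to 3′ on the strand of the gene, with matches in capitals. They are chr4:156200819-156201068 (minus strand) for Isg15, with 3 overlapping matches, chr1:173741810-173742059 (minus strand) for Ifi207 with 1, and chr11:82951852-82952101 (plus strand) for Slfn5 with 1.
Isg15: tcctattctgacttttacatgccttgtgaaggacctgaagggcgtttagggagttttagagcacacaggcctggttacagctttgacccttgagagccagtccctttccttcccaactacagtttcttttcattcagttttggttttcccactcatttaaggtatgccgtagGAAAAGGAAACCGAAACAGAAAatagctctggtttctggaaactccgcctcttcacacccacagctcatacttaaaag
Ifi207: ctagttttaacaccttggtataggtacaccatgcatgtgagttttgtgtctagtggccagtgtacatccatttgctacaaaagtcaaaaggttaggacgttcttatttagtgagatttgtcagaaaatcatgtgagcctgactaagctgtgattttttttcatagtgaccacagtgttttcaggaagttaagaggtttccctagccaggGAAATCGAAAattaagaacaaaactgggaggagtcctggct
Slfn5: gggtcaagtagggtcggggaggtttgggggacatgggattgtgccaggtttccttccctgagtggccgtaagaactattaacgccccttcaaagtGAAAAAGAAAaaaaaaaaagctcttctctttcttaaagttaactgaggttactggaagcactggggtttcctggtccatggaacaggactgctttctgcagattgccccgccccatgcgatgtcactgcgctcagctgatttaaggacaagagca
No match lay in the same window of Ifitm3 or Cd300a, which says only that these letters are not there. Of 32851 promoters of 27025 genes, 936 genes, or 3.46%, held a match, against 20 of the 38 matched genes (52.6%) of the list of interferon-stimulated genes. A match describes the sequence and is not a site of binding.

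The list of interferon-stimulated genes was then described as a group. Of its 50 genes 48 were in the files, 42 had a UMI in the Siglech cells and 25 passed the filter on low counts. None was called, at 0.0442% for all genes. With an unadjusted p under 0.05 there were 18 higher genes and none lower, where all genes tested gave 4.11% and 2.50%. Without overlap of the groups 21 were higher, where all genes tested gave 17.8%. The median log2 fold change of the 25 was 1.04, against 0.00 over all genes tested. The 42 genes with a UMI were counted as well. Of these, 29 (69.0%) were higher in both EV libraries than in both control libraries, where 14.8% of the 13396 genes with a UMI were. A gene can pass the filter through the EV libraries alone. It can also enter the wider count that way, as Ifi213 and Rsad2 did, so neither count is free of this selection. This list was chosen with earlier results of these data known, and its direction is not independent evidence.

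Within the list the genes differed widely. Irf7 stood at 55.0, 109, 219 and 285 CPM in Control 1, Control 2, EV 1 and EV 2 (log2 fold change 1.51, SE 0.34, adjusted p = 0.173, edgeR). Usp18, which removes ISG15 from its targets and restrains the receptor, was at 8.45, 30.3, 73.1 and 156 CPM (2.32), and Oasl2, of the oligoadenylate synthetase family, at 8.45, 15.1, 53.9 and 102 CPM (2.54). These 3 genes and Ifi203 were chosen after their values were seen. In each the groups were separate and the adjusted threshold was not passed. The most abundant members followed. Ifi27l2a was at 199, 320, 1277 and 459 CPM (1.70), and without the highest cell of each library at 177, 275.1, 1012 and 274.7 CPM, where the groups overlapped. Trim30a was at 271, 320, 454 and 619 CPM (0.81), and Sp100 at 207, 265, 423 and 588 CPM (1.04). Bst2 and Ly6e, by contrast, had values that overlapped between the groups, with log2 fold changes of -0.04 and 0.13. Bst2 was a marker used to check the cells and is itself an interferon-stimulated gene.

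**Figure D4:**
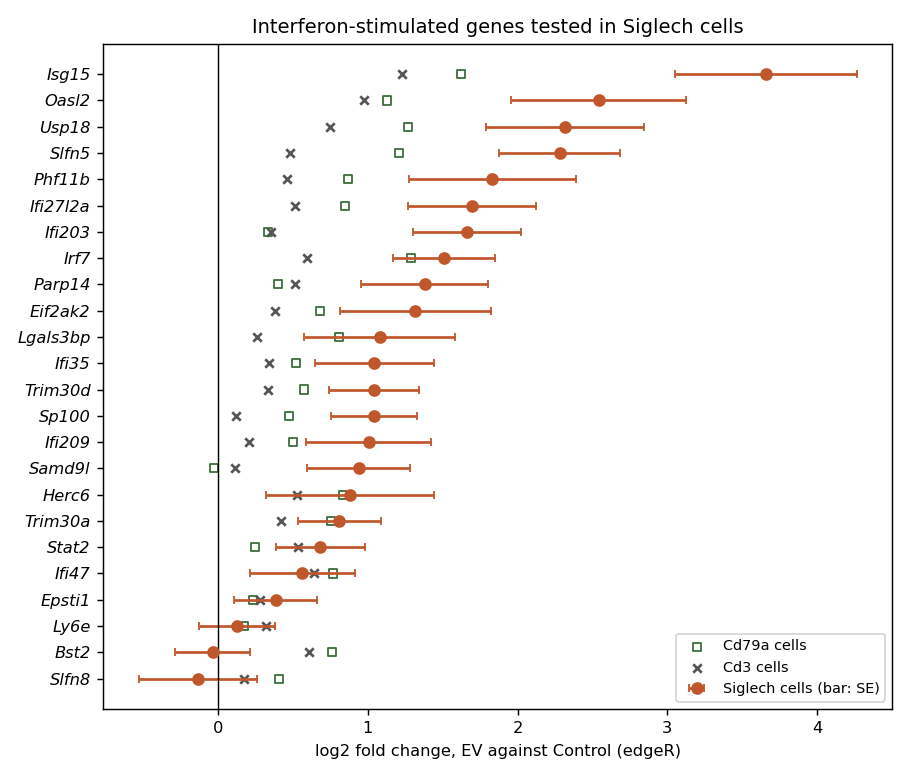
Log2 fold change of EV against Control (edgeR) for the tested interferon-stimulated genes but 1, with circles and SE bars for Siglech cells, squares for Cd79a cells and crosses for Cd3 cells. Most circles lie right of 0, from 3.66 for Isg15 downwards, while Ly6e, Bst2 and Slfn8 lie near 0.

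The same list was read cell by cell, to see whether the level came from few cells. Without Bst2, the 47 listed genes in the files summed to 3530, 4391, 6658 and 7958 CPM in Control 1, Control 2, EV 1 and EV 2. Leaving out the highest cell of each library gave 3359, 4126, 6258 and 6607 CPM, and both EV libraries stayed above both control libraries. Per 10000 UMIs of a cell, the median was 31.8, 42.7, 70.7 and 61.7 UMIs, and the highest cell had 62.3, 98.9, 128 and 375. More than 100 were found in 0, 0, 3 and 3 cells. The EV cells thus spread over a wider range than the control cells, with their medians above. Among the 3 cells of EV 1, a shallow one had 13 listed UMIs of 1125, 7 of Lyz2, 4 of C1qa and none of Bst2 or Tcf4. The highest cell of EV 1 had 9 Siglech UMIs and none of Ly6d or Cox6a2.

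**Figure D5:**
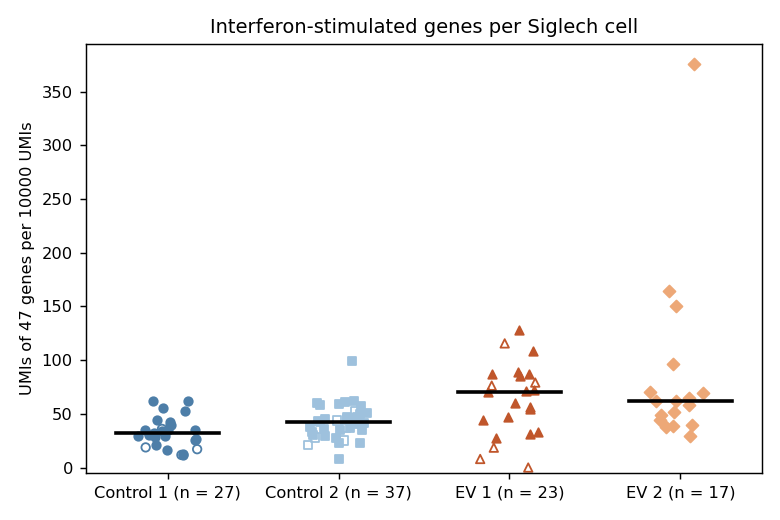
UMIs of 47 interferon-stimulated genes (without Bst2) per 10000 UMIs of a cell, 1 point per Siglech cell by library, with a bar at the median and open symbols for cells lacking Bst2, Tcf4 or Irf8. The medians are 31.8 and 42.7 in the control and 70.7 and 61.7 in the EV libraries, and 1 cell of EV 2 reaches 375.

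The B and T cells of the same libraries were read beside them. The 47 genes summed to 3915, 3974, 5208 and 5092 CPM in Cd79a cells and to 3565, 3732, 4425 and 4664 CPM in Cd3 cells. The median log2 fold change of the same 25 genes was 0.68 in Cd79a cells and 0.42 in Cd3 cells, against 1.04 in Siglech cells. Dendritic cells marked by Fscn1, a migratory type, had 7132, 6784, 5681 and 8171 CPM, without separation of the groups. Dendritic cells marked by Flt3 or Zbtb46, of which there were 4, 7, 8 and 16, had 1989, 2340, 6981 and 3319 CPM, with both EV libraries above both control libraries. Cells with C1q transcripts had 3515, 3287, 6595 and 3295 CPM, and the groups overlapped. Whether the EV effect in Siglech cells differed from that in the lymphocytes was tested gene by gene as an interaction with the library as a block (edgeR). It did for 28 of 12295 genes (0.228%) against Cd79a cells and for 18 of 13141 (0.137%) against Cd3 cells, and 10 genes were called against both. Among the 10, Gzma, Gm2682, Ccl5, Kcnq5 and AW112010 lost both calls without the 1 cell holding Gzma. March3 had 81.0% of its Control 2 UMIs in a single cell. Ifi203, of the HIN-200 family, was higher with EV in Siglech cells by 1.30 more than in Cd79a cells (SE 0.27, adjusted p = 0.00208, edgeR) and by 1.32 more than in Cd3 cells (SE 0.28, adjusted p = 0.00532, edgeR). With each cell reduced to 1000 UMIs these differences were 0.84 and 1.00, and neither was called. Without Control 1 the call was lost, with differences of 0.89 and 0.91 (adjusted p = 1 for both, edgeR), and without EV 2 too, with 0.96 and 0.98. The call against Cd3 cells was also lost without Control 2 (adjusted p = 0.111, edgeR). Of the listed genes, Isg15 (2.55, adjusted p = 0.00624), Slfn5 (1.86, adjusted p = 0.0257) and Ifi27l2a (1.09, adjusted p = 0.0277) differed from Cd3 cells in the same edgeR test, and were not called against Cd79a cells. Without the filter on low counts Slfn5 and Ifi27l2a were not called against Cd3 cells either (adjusted p = 0.0516 and 0.0650, edgeR). Ifi27l2a rested on EV 1, without which its difference was 0.38, and all 3 calls were lost without Control 1 and without Control 2. Slfn5 was not called without EV 1 either (adjusted p = 0.235, edgeR), nor Isg15 without EV 2 (adjusted p = 0.103, edgeR). The 3 classes share their libraries, so one class does not replicate another.

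Values that moved with this comparison stand beside it. The median depth of a Siglech cell was 9594 and 12066 UMIs in the control and 13353 and 14738 in the EV libraries. The macrophage list was highest in EV 2, at 574 CPM, the transitional dendritic cell list in EV 1, at 712 CPM, and the 16 cells lacking a marker were absent from EV 2. In EV 2 a single cell held 23, 24 and 13 UMIs of C1qa, C1qb and C1qc, and in EV 1 a single cell held 70 of Lyz2. The part of depth and of other cells in these values was not tested. Among the 76 cells with 8 or more Siglech UMIs, which include the cell with Gzma transcripts, Ifitm3 had a log2 fold change of 5.02 and Ifi207 of 2.31 (adjusted p = 0.00687 and 0.00238, edgeR), and 30 genes were called, 20 higher and 10 lower.

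Other lists held fewer differences. At an unadjusted p under 0.05, 4.11% of all genes tested were higher and 2.50% lower, beside which the counts here are read. Of 11 tested lineage transcription factors 2 were higher (Cbfa2t3 and Irf7) and 1 lower (Id3) at an unadjusted p under 0.05, with a median log2 fold change of 0.19. The identity genes Tcf4, Bst2 and Irf8 had log2 fold changes of 0.03, -0.04 and -0.06. Of 42 surface and other genes 1 was higher and 5 were lower at that level, with a median of -0.07. The higher was Ly6a (Sca-1), itself inducible by interferon, at 778, 621, 1373 and 1461 CPM (0.99). Among the lower were Lair1 at 960, 971, 685 and 628 CPM (-0.59) and Dntt at 178, 192, 104 and 66.8 CPM (-1.13). Nucleic acid sensing (18 tested, median -0.05), the secretory pathway (28, -0.03), MHC class II and costimulation (8, 0.01) and homing (10, 0.02) had medians near that of all genes. Of 9 genes of the interferon receptor and its signalling, 2 were higher at an unadjusted p under 0.05, among them Stat2 (0.68), with a median of 0.08. No gene of these lists passed the adjusted threshold.

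Chaperones, which fold proteins and respond to heat and handling, formed the other group with a high median. All 9 tested genes were higher in both EV libraries than in both control libraries (17.8% of all genes tested), 8 at an unadjusted p under 0.05 (4.11% of all) and none after adjustment, with a median log2 fold change of 1.25. Hspa8, the constitutive Hsp70, stood at 554, 568, 1773 and 1309 CPM (1.43, adjusted p = 0.107, edgeR), and Hsp90ab1 at 816, 878, 1650 and 1470 CPM (0.85). Hsp90aa1 (1.25), Dnaja1 (1.48), Hspd1 (0.77) and Hspe1 (0.60) were also higher. Hspa8 rose in B and T cells too, with log2 fold changes of 1.24 in Cd79a cells and 0.91 in Cd3 cells (adjusted p = 0.00437 and 0.0122, edgeR). Of the 6 tested early-response genes that tissue dissociation is known to raise, 1 was higher at an unadjusted p under 0.05, and their median was 0.05. The part of sample handling in the chaperone values was not tested.

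Among the changes that the study reported in T cells of these nodes was lower Cdk8, a kinase of the Mediator complex. By qPCR in human CD4 T cells the study also reported lower CDK8 and lower CDK19, its paralog, after iPSC EVs. It reported the same after mimics of a microRNA family abundant in those EVs. In Siglech cells Cdk8, on chr5:146231230-146302874, stood at 355, 240, 169 and 22.3 CPM in Control 1, Control 2, EV 1 and EV 2, in 26 of 27, 32 of 37, 17 of 23 and 4 of 17 cells. After each cell was reduced to 1000 UMIs it was left in 46.2%, 35.3%, 23.8% and 0% of the cells. The log2 fold change was -1.59 (SE 0.52, adjusted p = 0.456, edgeR), ranging from -3.75 to -0.79 as single libraries were left out. As a ratio, EV 1 lay closer to both controls than to EV 2. Cd79a cells gave 730, 414, 255 and 88.9 CPM and Cd3 cells 788, 457, 262 and 89.9 CPM, the same order of libraries. Gm42418, which overlaps an rRNA gene and collects rRNA-derived reads, stood at 9147, 9167, 4577 and 721 CPM in Siglech cells and at 8689, 9954, 5687 and 840 CPM in all other cells, also lowest in EV 2. The 7 rRNA-like and nuclear transcripts had a median log2 fold change of -0.77, with 6 lower without overlap (17.3% of all genes tested). The part of such a library difference in the Cdk8 values was not tested. Cdk19 stood at 127, 134, 80.8 and 151 CPM, and its groups overlapped.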

How the data were processed

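The authors deposited UMI counts per gene and barcode for each library, made with Cell Ranger 7.1.0 on mm10. The deposited counts are whole numbers for barcodes already called as cells, before the study's own limits. Neither the annotation release nor how intronic reads were treated is given in the sources used here. The 34323 barcodes were reduced to 32725 by the limits given above. No doublets were removed, since the methods name no such step, and cells with Cd3 or Cd79a transcripts were left out by the rule.

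The cells, gene lists and tests were chosen with earlier results of these data known. Counts were summed per library and tested with edgeR 4.0.16 (R 4.3.3, limma 3.58.1), using filterByExpr, TMM and the quasi-likelihood test at an adjusted p under 0.05. The common biological coefficient of variation was 0.183. Printed CPM are unscaled, and overlap of the groups among the tested genes was read on TMM-scaled CPM. The class comparison summed Siglech cells, Cd79a cells and Cd3 cells. For shares, the exact permutation test was two-sided. Limits for a count of 0 use 3 counts. Thinning drew 1000 UMIs per cell without replacement (seed 1). The scripts were tested on simulated data drawn from the real means. There the EV test recovered 21.1% of the genes changed by 1 on the log2 scale and 79.8% of those changed by 2. The class comparison recovered 5% and 40%, so a gene that was not called may still have changed.

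Genes were named by rule, namely the markers, the 5 of smallest p in each direction whose groups do not overlap, Cdk8 and Cdk19, and the most abundant tested interferon-stimulated and chaperone genes. A few results, among them 1 that the rule takes, are not reported here. Others, all list members or genes called in the class comparison, were chosen after their values were seen. Gene positions are from GENCODE M21. Python 3.11.15, numpy 2.4.6, scipy 1.17.1, pandas 2.3.3 and matplotlib 3.10.9 were used.

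The alternatives were DESeq2 1.42.0, no filterByExpr, another library size, a replicate block, thinned cells, other cell limits (a ribosomal limit of 60%, or no upper limits with a mitochondrial limit of 5%), other Siglech thresholds, a requirement for Bst2, Tcf4 and Irf8, leaving out the 1 cell with Gzma transcripts, and each library left out in turn. The thresholds of 5 and 8 Siglech UMIs, leaving out that cell, and their use and that of single libraries left out in the class comparison were chosen after seeing the data.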

Additional observations from a re-analysis of the deposited data

Results flagged for a closer look

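The EV effect in Siglech cells differed from that in lymphocytes of the same libraries, by the edgeR interaction test, for 28 genes against Cd79a cells (13 with a higher and 15 with a lower log2 change) and for 18 genes against Cd3 cells (14 and 4). Beside Ifi203 (1.30 and 1.32 on the log2 scale), the genes differing from both classes in the Siglech cells included Runx1, a factor of blood cell development, by 1.48 and 1.51. The cell of EV 2 with the most Runx1 held 8 UMIs of Cx3cr1 and 5 of Zbtb46, both listed for transitional dendritic cells, and none of Cox6a2. Runx1 stood at 106, 164, 773 and 343 CPM in Control 1, Control 2, EV 1 and EV 2, with 41.3% and 55.8% of the UMIs of EV 1 and EV 2 in a single cell of each library. Without EV 1 its differences were 0.66 and 0.57, and the calls were lost without Control 1 or Control 2 as well.

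Id3 differed by -2.67 and -2.74 and Gtf2h5 by -1.96 and -1.93. Id3 rested on 32, 23, 2 and 3 UMIs and Gtf2h5 on 22, 40, 6 and 6. The Id3 calls were lost without Control 1 or EV 1, and among cells with 8 or more Siglech UMIs (adjusted p = 0.277 and 0.291, edgeR). A single cell held 59.4% of the Id3 UMIs of Control 1, and without it the level there was 57.1 CPM in place of 135. The calls of Gtf2h5 were lost without Control 1, Control 2 or EV 1, and the one against Cd3 cells also without the cell holding Gzma (0.0568) and without the filter on low counts (0.0516). Isg15 (2.55), Slfn5 (1.86) and Ifi27l2a (1.09) differed from Cd3 cells.

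AW112010 differed by 2.68 and 2.02, with 88.6% of the UMIs of EV 1 and 100% of those of EV 2 in a single cell of each library. In EV 1 a single cell also held 157 UMIs of Gzma and 28 of Gm2682, and Gzma belongs to cytotoxic lymphocytes. Without that cell the values for AW112010 were 1.05 and 0.40 and neither was called, while 21 and 11 genes were called against Cd79a and Cd3 cells. Without EV 1 the AW112010 values were 1.61 and 0.94, and with Bst2, Tcf4 and Irf8 required they were 5.49 and 4.83.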

How the results depend on the processing

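The count of 2 called genes became 4 with DESeq2, 86 without filterByExpr, 0 in thinned cells (362 genes tested), 5 without the cell holding Gzma, 16 at a threshold of 1 Siglech UMI, 40 at 3, 30 at 8, 12 at 5 with Cd3 or Cd79a transcripts allowed and 11 when Bst2, Tcf4 and Irf8 were required. With 1 library left out it ranged from 8 to 165. In these fits 1 group has a single library, which is assumed to vary like the others. With the replicate block it was 0 (234 genes at an unadjusted p under 0.05). Libraries of the same number had deviations that correlated at -0.04. With 2 libraries a group this is a single value up to its sign, so it does not decide whether the numbers pair the samples. The share differed by -0.0499 percentage points between the libraries numbered 1 and by -0.270 between those numbered 2. A block leaves the mean of -0.160 unchanged by construction. With a library left out the share differed by -0.228 to -0.0911.

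The 28 and 18 genes of the class comparison became 0 and 0 in thinned cells, and ranged from 6 to 90 and from 3 to 73 with a library left out. Against Cd3 cells there were 29 with Bst2, Tcf4 and Irf8 required and 11 without the cell holding Gzma. The cause of these changes was not tested. In thinned cells 9053 and 9102 genes were tested.

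Of the 31 named genes only Ifitm3 and Ifi207 were called, so the other 29 had no call to lose. Over 506 alternatives for all 31, 491 kept the direction without losing a call, of which 118 gained one, 4 lost the call (Ifitm3 and Ifi207 with the replicate block, adjusted p = 0.318 for both by edgeR, and Ifi207 without Control 1, 0.147, and without upper limits on depth at a mitochondrial limit of 5%, 0.193) and 11 turned direction. Cacnb2 turned to 0.059 without upper limits on depth at a mitochondrial limit of 5%. The others were small as reported, namely Bst2 (0.028 thinned, -0.12 to 0.0090 with a library left out), Tcf4 (-0.076 at 1 Siglech UMI, -0.22 to 0.22 with a library left out), Irf8 (0.17 thinned, 0.047 at 5 Siglech UMIs with Cd3 or Cd79a allowed), Ly6e (-0.035 to 0.27 with a library left out) and Cdk19 (-0.72 to 0.12 likewise). The median of the interferon-stimulated genes stayed between 0.83 and 1.36, that of the chaperones between 0.93 and 1.37, and that of the rRNA-like transcripts between -2.48 and -0.57.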

Other observations

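The UMIs of Ighm, the μ heavy chain, in the Siglech cells outnumbered those of Ighd, the δ heavy chain, by 30.8, 49.2, 63.0 and 39.3 in Control 1, Control 2, EV 1 and EV 2. These ratios rest on only 5, 6, 2 and 4 UMIs of Ighd, so a single UMI moves them widely. In Cd79a cells the ratio was 1.71, 1.65, 1.62 and 1.69, and in Cd3 cells, which do not express a B cell receptor, it was 25.9, 33.0, 25.2 and 25.9. Iglc3, a λ light chain constant gene, stood at 576 CPM and was seen in 74.0% of the Siglech cells. In Cd79a cells it stood at 852 CPM and was seen in 92.4%, and in Cd3 cells, which should lack it, at 2.99 CPM and in 1.88%. The median depth was 9594 to 14738 UMIs per library in the Siglech cells, 4133 to 5802 in the Cd79a cells and 6441 to 8755 in the Cd3 cells.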
